A study of Drosophila melanogaster and Drosophila arizonae and Drosophila mojavensis with 18 samples.

Results

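The genes described here encode the proteins of the mitochondrial ribosome in larvae of D. melanogaster fed 3 diets that differ in protein and sugar. They are the genes whose FlyBase symbol starts with mRpL (large subunit) or mRpS (small subunit) followed by a digit, and whose mean over the 6 D. melanogaster libraries was at least 10 in the deposited values. The rule took 71 genes of the 17239 in the table, 47 of the large and 24 of the small subunit, as judged by symbol alone. Their means lay between 218.1 for mRpS18C and 1120.7 for mRpL28 in the deposited values, so that none was near the limit of 10, and no gene with such a symbol fell below it. Of 73 such symbols in the table of gene names, mRpS5 and mRpS34 have identifiers other than those of the expression table and were not analysed here.

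The series measured gene expression by RNA-Seq in whole larvae of 3 Drosophila species, in 18 libraries, of which the 6 of D. melanogaster were used. Stocks were kept on banana-opuntia medium, and larvae early in the third instar were placed on 1 of 3 isocaloric diets for 24 h. The diets were LPHS, low in protein (active dry yeast) and high in sugar (sucrose), EPS, with equal amounts of both, and HPLS, high in protein and low in sugar. Each diet had 2 libraries, numbered S2 and S1. The study used a pair of isofemale strains of D. melanogaster. Whether the set number stands for the strain is not stated, so that strain and any other difference between the sets S2 and S1 cannot be told apart. The flies carried no transgene, each library came from a pool of larvae, and the sex of the larvae was not given.

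Mitochondria make a small number of proteins on ribosomes of their own. All of these are hydrophobic subunits of the respiratory chain and of ATP synthase, and their messenger RNAs come from the mitochondrial genome. The ribosomal RNAs come from the same genome, while every protein of the mitochondrial ribosome is encoded in the nucleus, made in the cytosol and imported. Many of these proteins have a counterpart in the bacterial ribosome, and the others are found in mitochondria alone. Fly larvae with a mutant tko, a protein of the small subunit, are known to develop slowly.

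All 71 genes passed the filter on low values, among 12287 genes tested. The libraries held between 13219684 and 32807688 fragments in genes, and the deepest was the HPLS library of S2. A member had between 153 and 1614 fragments in a library, which gives a counting error of 8.1% at the lowest and 2.5% at the highest count. In mRpL13 and mRpL53 none of the deposited values is within 0.01 steps of a whole multiple of the step of its library, and their exons overlap a gene on the same strand, so that their values are uncertain. Counting error covers neither the spread between larvae nor that of library preparation. In the HPLS library of S2, 4 abundant genes that are high in all other libraries (Lsp1beta, Lsp1gamma, Lsp2 and mt:lrRNA) are listed at 0, and no member is. Transcripts of fat body, salivary gland, midgut, muscle, epidermis, nervous system, hemocytes and testis were found in every library, as whole larvae would give.

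The members lie on all major chromosome arms, with 12 on 2L, 12 on 2R, 15 on 3L, 21 on 3R and 11 on X (release 6 of the genome, Ensembl release 115 annotation). Their exons cover between 327 and 2078 bases, with a median of 783. In 42 of the 71 genes the exons overlap those of another gene, in 41 of them of a gene on the opposite strand. The libraries did not mark the strand, so that reads from such an overlap cannot be assigned to either gene. The remaining 29 genes have no such overlap, and the main counts are also given for them.

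Values are given below as normalised values, that is, deposited fragment counts (already scaled by the authors) scaled once more between libraries by TMM. Levels of different genes are compared only per kb of coding sequence. On that scale the members spanned a range of 4.9 times, from 394.7 to 1939.7 normalised units per kb with a median of 697.7 (mean over 6 libraries). The median level per kb was 698.6 for the 47 genes of the large and 686.9 for the 24 genes of the small subunit. It was 763.0 for the 45 genes with a bacterial counterpart and 617 for the 26 genes particular to mitochondria, with no test of these differences. The order of the levels was close to the same in all libraries. The Spearman correlation over the 71 genes was between 0.839 and 0.972 in the 15 pairs of libraries, which share gene lengths and annotation.

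At the top of that order stood mRpL53, a protein of the large subunit found in mitochondria alone, with 1939.7 normalised units per kb. Its gene on 2R (13954195 to 13955664) shares 862 exonic bases with AGO1 and CG33155, and its level is uncertain for the reason above. Next came mRpL33 (X, 4321764 to 4322231) with 1522, mRpL28 (2L, 4973976 to 4975316) with 1265 and mRpL52 (2R, 7673721 to 7674400) with 1233. A short coding sequence raises the value per kb, since fragments of untranslated exons are counted too: per kb of exon mRpL53 and mRpL28 had ranks 1 and 2, and mRpL33 and mRpL52 had ranks 5 and 6. At the bottom were mRpL38 (X, 14226289 to 14227949) with 394.7, mRpL37 (3R, 10782563 to 10784092) with 401.9, mRpL11 (3R, 14511838 to 14512691) with 418.2 and mRpL44, an RNase III-like protein (3R, 5469463 to 5470636), with 436.3. Differences between these neighbours were not tested. The values of mRpL38 ranged from 336 to 614 and those of mRpL37 from 328 to 635 normalised units over the 6 libraries, before division by length. Most members varied together over the libraries, so that these ranges are not the error of a comparison between genes. Per kb, mRpL44 was above mRpL38 in each of the 6 libraries (334.7 against 269.2 in S2 HPLS), while mRpL37 and mRpL38 changed order between libraries. In the plot of levels by gene, the 6 libraries of a gene are spread over a good part of the distance between the lowest and the middle genes.

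**Figure D1:**
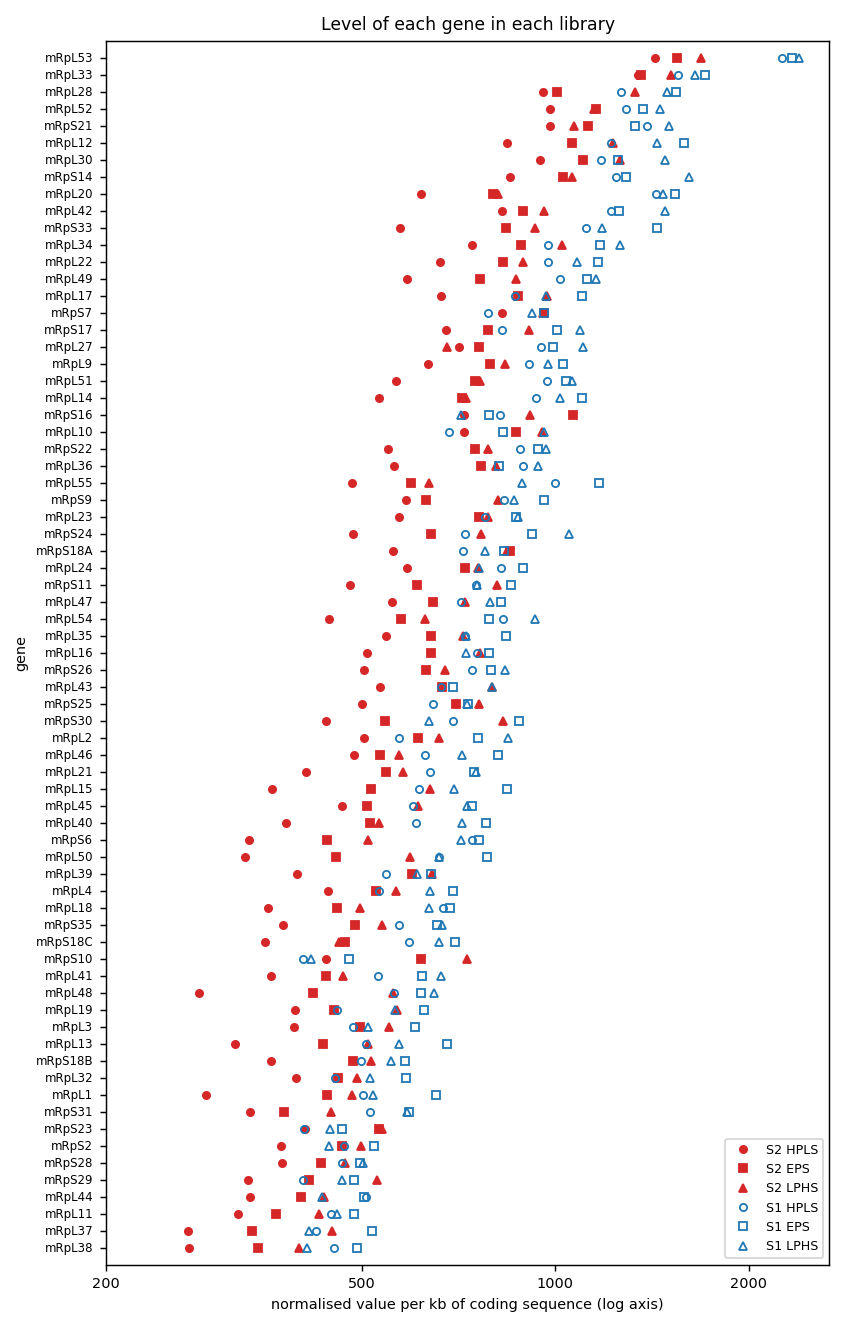
Normalised value per kb of coding sequence (x axis, log scale) of the 71 genes (y axis, sorted by their mean) in each of the 6 libraries. Filled red symbols are S2 and open blue symbols S1, with circles for HPLS, squares for EPS and triangles for LPHS. In 65 of the 71 genes the S2 HPLS library (filled circle) is the lowest.

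Across libraries, the members shared much of their pattern. The lowest value was in the HPLS library of S2 for 65 of the 71 genes, and the highest was in an S1 library for 63 of them (EPS in 37, LPHS in 25, HPLS in 1). The 71 values summed to 23821 normalised units in HPLS, 29530 in EPS and 33294 in LPHS among the S2 libraries, and to 33948, 39203 and 37539 on the same diets in S1. In S2 the order HPLS, EPS, LPHS from low to high held in 64 of the 71 genes. In S1 it held in 22 genes, and EPS was the highest of the 3 in 44. The highest library of a gene was between 1.22 and 2.51 times its lowest, with a median of 1.67.

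**Figure D2:**
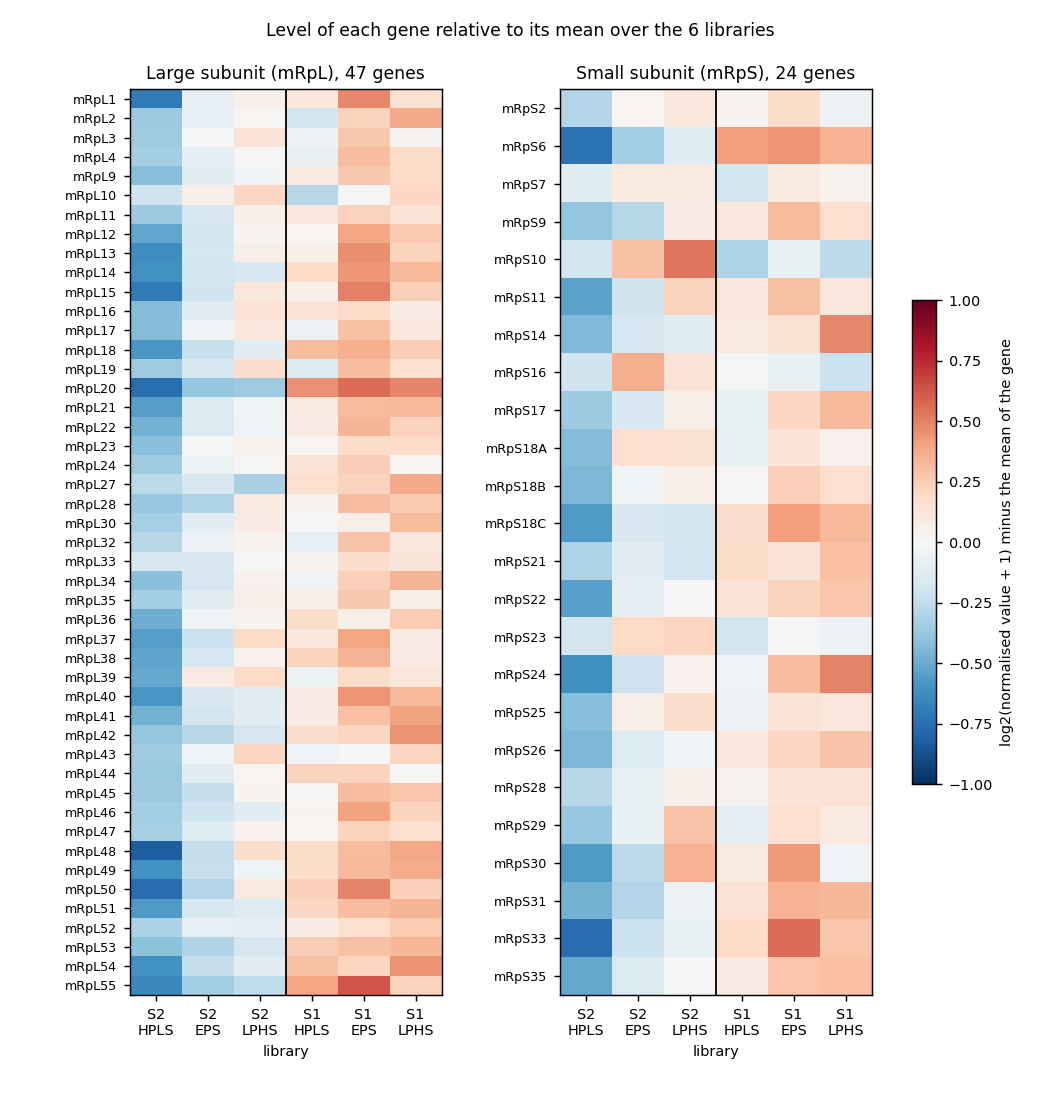
Level of each gene in each library, as log2(normalised value + 1) minus the mean of that gene over the 6 libraries (colour, from blue at -1 to red at 1). Rows are genes of the large subunit (left panel) and small subunit (right panel), and columns are libraries, S2 left of S1. The S2 HPLS column is blue in nearly all rows, and mRpS10, mRpS16 and mRpS23 are lower in S1 than in the EPS and LPHS libraries of S2.

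LPHS-HPLS asks what the high-sugar, low-protein diet did relative to the high-protein diet. Fitted with limma, all 71 members had a log2 fold change above 0, between 0.07 and 0.60 with a median of 0.31. Over all genes tested the median was -0.01, and 48.1% lay above 0. No member passed the test. limma called 0 of 12287 genes in this comparison (0.0%), with 181 genes at an unadjusted p below 0.05, among them 1 member, mRpL10. The quasi-likelihood test of edgeR called 0 genes and DESeq2 called 14, none of them a member. The error of this test holds the difference between S2 and S1, which was large in these genes.

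Within S2, 70 of the 71 genes were higher on LPHS than on HPLS, with a median log2 difference of 0.46. Within S1, 59 were, with a median of 0.16. In 58 genes both sets showed a higher value on LPHS, against 26.1% of all genes tested, and in 0 genes did both show a lower one. The LPHS values lay wholly above the HPLS values in 28 genes, against 11.5% of all genes tested. Of the 29 genes with no exonic overlap, 23 were higher in both sets and 9 did not overlap between the diets.

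The size of the fitted shift changed with the library left out. These fits had no term for the set, so that the difference between S2 and S1 enters them. Within S1 alone, where the HPLS library of S2 is not used, the median was 0.16, with 59 of 71 above 0. In the fit without the HPLS library of S2, the median log2 fold change of the members was 0.03 and 46 of 71 lay above 0. Without the HPLS library of S1 the median was 0.58 and all 71 lay above 0. Leaving out the LPHS library of S2 gave 0.41, with 69 above 0, and leaving out that of S1 gave 0.23, with 65 above 0.

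**Figure D3:**
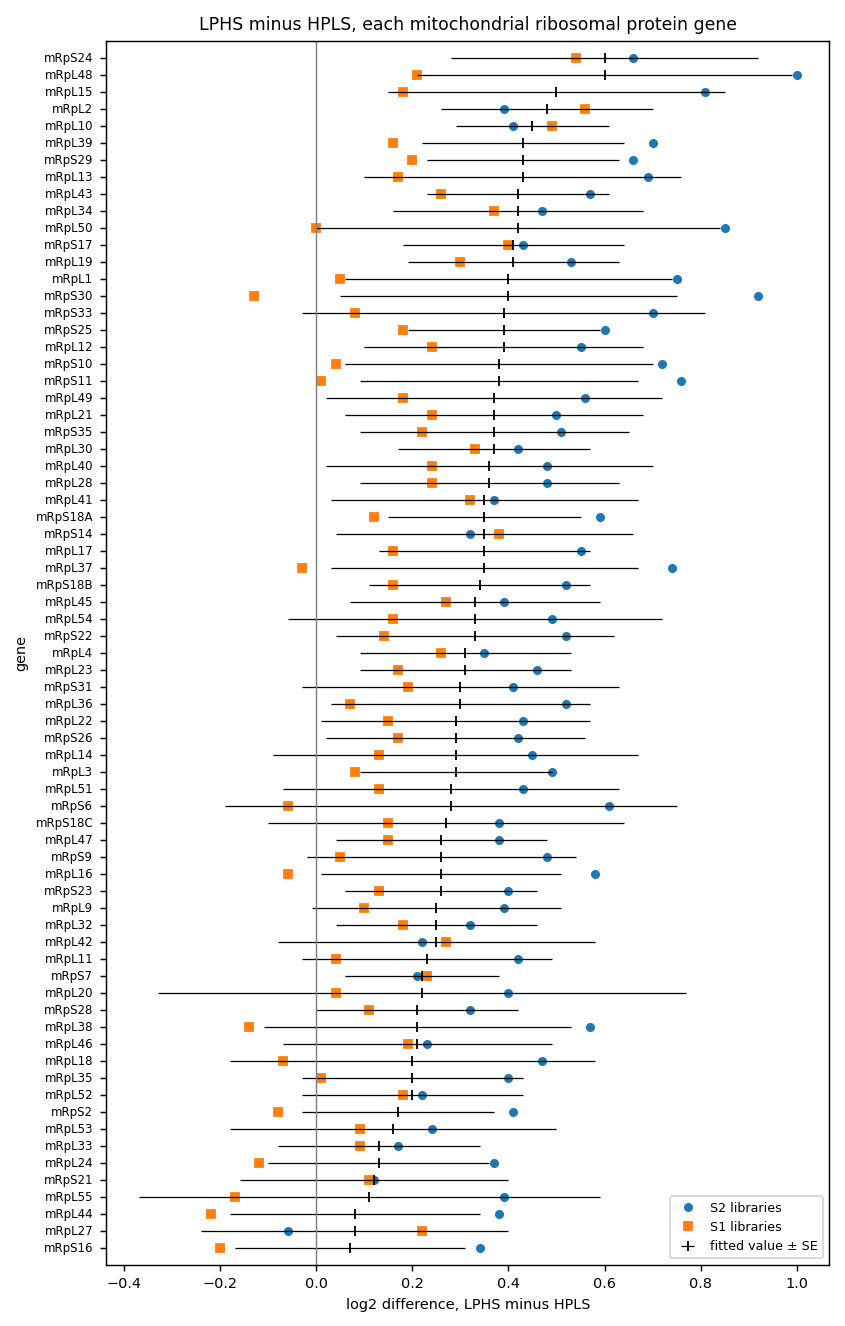
Log2 difference LPHS minus HPLS (x axis) of each of the 71 genes (y axis), sorted by the fitted value. Circles are the S2 libraries, squares the S1 libraries, and the black mark with its bar is the fitted value ± SE. All fitted values lie above 0, between 0.07 and 0.60, the circles lie mostly to the right of the squares, and no gene passed the test.

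Among genes higher on LPHS in both sets, the largest fitted values were those of mRpL48 and mRpS24. mRpL48, a mitochondria-specific protein of the large subunit (2L, 1710462 to 1711465), had 151.6, 227.5 and 303.8 normalised units on HPLS, EPS and LPHS in S2, and 304.8, 335.1 and 352.2 in S1. Both sets ran in the order HPLS, EPS, LPHS from low to high, but the S1 value on HPLS was as high as the S2 value on LPHS. Its log2 fold change was 0.60 ± 0.39 (SE, limma adjusted p = 1). mRpS24 (3R, 24162829 to 24163545), the counterpart of bacterial S3 at the entry of the messenger RNA, had 239.7, 317.5 and 378.9 in S2 and 358.0, 454.9 and 519.2 in S1. It had the same order in both sets, with a log2 fold change of 0.60 ± 0.32 (limma adjusted p = 1). In mRpS24, 332 exonic bases are shared with TBC1d7 on the opposite strand.

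mRpL15 (3L, 20435110 to 20436209), a protein of the body of the large subunit, had 311.4, 442.7 and 547.4 on HPLS, EPS and LPHS in S2 and 527.1, 721.9 and 597.8 in S1. Its LPHS values, 547.4 and 597.8, lay above its HPLS values, 311.4 and 527.1, (log2 fold change 0.50 ± 0.35, limma adjusted p = 1). mRpL2, a core protein near the peptidyl transferase centre (3L, 11120847 to 11122041), had 443.8, 538.9 and 580.7 in S2 and 503.4, 668.3 and 745.1 in S1. Here too the order was the same in both sets, and S1 differed more between the diets than S2 did (log2 fold change 0.48 ± 0.22, limma adjusted p = 1).

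mRpL10, which anchors the stalk that binds the GTPase factors, gave the smallest unadjusted p of the members. Its values were 536.3, 646.4 and 710.6 on HPLS, EPS and LPHS in S2 and 507.6, 617.5 and 714.2 in S1, so that the 2 libraries of a diet lay close together and the 3 diets did not overlap. Its log2 fold change was 0.45 ± 0.16, with an unadjusted limma p of 0.0325 and an adjusted p of 1. When single libraries were left out, its log2 fold change ranged from 0.42 to 0.49. The range was 0.31 to 0.65 for mRpL2, 0.31 to 0.90 for mRpS24, 0.12 to 0.89 for mRpL15 and 0.10 to 1.12 for mRpL48. For mRpS24, mRpL15 and mRpL48 the value was lowest without the HPLS library of S2 and highest without that of S1, and for mRpL2 it was lowest without the LPHS library of S1 and highest without that of S2. For the 11 genes described by role below, the lowest value lay between -0.11 and 0.29 and the highest between 0.45 and 0.82.

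The other proteins of the stalk and its base were less even. mRpL12, the protein of the stalk itself, had 459.2, 580.2 and 670.9 in S2 and 665.6, 865.4 and 787.2 in S1 (log2 fold change 0.39 ± 0.29). mRpL11, at the stalk base, had 188.8, 216.2 and 252.2 in S2 and 262.9, 286.0 and 269.4 in S1 (0.23 ± 0.26). mRpL1, of the L1 stalk that handles the outgoing transfer RNA, had 304.3, 468.5 and 513.1 in S2 and 532.7, 692.0 and 552.9 in S1 (0.40 ± 0.34). In these 3 genes S1 was highest on EPS, and S1 on LPHS was above S1 on HPLS by 0.04 in mRpL11 and 0.05 in mRpL1 on the log2 scale. mRpL9, which reaches out from the base of the L1 stalk, had a log2 fold change of 0.25 ± 0.26.

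Of the core proteins of the large subunit, mRpL3 had 425.2, 538.9 and 597.9 on HPLS, EPS and LPHS in S2 and 525.7, 657.4 and 555.7 in S1, with a log2 fold change of 0.29 ± 0.20. mRpL4, which lines the tunnel through which the new chain leaves, had 393.5, 467.5 and 501.3 in S2 and 472.6, 615.7 and 566.9 in S1 (0.31 ± 0.22). Both had LPHS values above all HPLS values, as did 18 of the 47 genes of the large subunit and 10 of the 24 of the small subunit. Over all genes tested this share was 11.5%.

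Among the genes with an mRpS symbol, mRpS29 encodes a GTP-binding protein (DAP3 in mammals). It had 391.3, 487.2 and 620.4 on HPLS, EPS and LPHS in S2 and 476.8, 572.1 and 547.3 in S1, with a log2 fold change of 0.43 ± 0.20. mRpS30, whose mammalian homolog sits in the large subunit despite its name, was less even. It had 733.9, 907.1 and 1386.8 in S2, and 1159.2, 1465.6 and 1062.2 in S1, where it was lower on LPHS than on HPLS (log2 fold change 0.40 ± 0.35). The fly has 3 paralogs of the bacterial protein S18. mRpS18A had 260.0, 395.1 and 390.7 in S2 and 334.2, 386.8 and 362.0 in S1 (0.35 ± 0.20). mRpS18B had 221.1, 296.8 and 316.6 in S2 and 304.8, 356.9 and 339.6 in S1 (0.34 ± 0.23). mRpS18C had 148.3, 197.6 and 193.2 in S2 and 248.9, 293.3 and 276.4 in S1 (0.27 ± 0.37). All 3 paralogs were highest on EPS in S1, and mRpS18C was lower in every S2 library than in every S1 library.

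A pair of proteins of the small subunit with other symbols, which the rule does not take, were set beside the members. tko, the counterpart of bacterial S12 that governs decoding accuracy, had 344.8, 444.8 and 532.4 on HPLS, EPS and LPHS in S2 and 489.4, 589.3 and 617.4 in S1. bonsai, the counterpart of bacterial S15, had 282.9, 433.4 and 505.6 in S2 and 667.0, 927.1 and 687.6 in S1. Their log2 fold changes in LPHS-HPLS were 0.48 ± 0.26 and 0.44 ± 0.54 (limma adjusted p = 1 for both).

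In 13 members LPHS was not higher in both sets. In 12 of them S1 was no higher on LPHS than on HPLS, and in mRpL27, a protein near the peptidyl transferase centre, S2 was lower, with 281.2 on LPHS against 292.8 on HPLS. The smallest fitted value was that of mRpS16, 0.07 ± 0.24, which had 279.1, 412.7 and 353.1 on HPLS, EPS and LPHS in S2 and 317.4, 305.1 and 276.4 in S1. By subunit, the median log2 fold change was 0.31 for the large and 0.33 for the small subunit. By origin, it was 0.29 for genes with a bacterial counterpart and 0.34 for those particular to mitochondria. LPHS values lay wholly above HPLS values in 22 of the 45 genes with a bacterial counterpart, against 11.5% of all genes tested. They did so in 6 of the 26 particular to mitochondria, and the difference by origin was not tested.

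EPS-HPLS compares the equal diet with the high-protein diet, and shares the HPLS libraries with the comparison above. All 71 members had a fitted log2 fold change above 0, with a median of 0.26, against 47.3% of all genes tested and a median of -0.01. EPS was higher than HPLS in both sets in 66 genes (24.7% of all genes tested), and the groups did not overlap in 13 genes (6.42%). limma called 0 genes (0.0%), with 43 genes and 0 members at an unadjusted p below 0.05, and neither edgeR nor DESeq2 called any. The median difference was 0.33 within S2 and 0.21 within S1. In fits without single libraries it was -0.01 without the HPLS library of S2, with 33 of 71 above 0, and 0.04 without the EPS library of S1. It was 0.50 without the HPLS library of S1 and 0.47 without the EPS library of S2. These fits too had no term for the set, so that the difference between S2 and S1 enters them.

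LPHS-EPS showed no common direction. The median log2 fold change of the members was 0.05, with 47 of 71 above 0, against 50.1% of all genes tested. In S2, 64 genes were higher on LPHS than on EPS, and in S1 25 were. Both sets were higher in 22 genes (18.2% of all genes tested), and in mRpL10, mRpL30 and mRpL43 the LPHS values lay wholly above the EPS values (6.52% of all genes tested). limma called 0 genes (0.0%), with 23 genes and 0 members at an unadjusted p below 0.05, and edgeR and DESeq2 called 0. Without the EPS library of S2 the median was -0.15, and without that of S1 it was 0.28, again with no term for the set. mRpL30, which had 510.6, 595.8 and 681.6 on HPLS, EPS and LPHS in S2 and 636.2, 675.6 and 801.2 in S1, and mRpL43, which had 307.6, 383.7 and 458.3 in S2 and 383.1, 398.6 and 458.9 in S1, ran in the order of the diets in both sets.

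With diet as a number from HPLS over EPS to LPHS, the trend test of limma called 0 genes (0.0%) and had 334 genes at an unadjusted p below 0.05, among them 4 members. edgeR called 0 genes and DESeq2 called 22, with 0 members. With the set number (S2 or S1) as a block, limma called 6 genes, with 0 members, and had 1313 genes at an unadjusted p below 0.05, among them 22 members. The members' slope had a median of 0.16 on the log2 scale per diet step.

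The sets S2 and S1 differed in many of these genes. In S2-S1, fitted beside the diet, 66 of 71 members lay below 0, with a median log2 difference of -0.39, while the median of all genes tested was 0.01. limma called 17 members lower in S2 and 0 higher, at an adjusted p of at most 0.05, where it called 8.57% of all genes lower and 7.07% higher. In 36 members every S2 value lay below every S1 value (21.9% of all genes tested), and in 0 members above (21.6%). Of the 29 genes with no exonic overlap, 7 were called lower and 17 did not overlap. By diet, the median difference was -0.52 on HPLS, -0.40 on EPS and -0.18 on LPHS, and 67, 65 and 54 of the 71 genes were lower in S2 on these diets.

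These calls depend on the diets used and on the scale. As diet was in the fit, leaving out either library of a diet takes that diet out of S2-S1. The members' median was -0.31 without either HPLS library and -0.35 without either EPS library. It was -0.46 without the LPHS library of S2 and -0.47 without that of S1. The number of members called changed with the library left out, and so did the number called over all genes tested. Both fell without an HPLS or EPS library and rose without an LPHS library. The deposited totals of the S2 libraries, 20962773 to 22042870, were above those of S1, 15223986 to 15708574. On the deposited values without further scaling, the median of all genes was 0.52 and that of the members 0.13. On that scale 7 members were called higher and 1 lower, where 6842 of all 12287 genes were called, 6391 of them higher. A change of scale shifts all genes of a library alike. The place of the members below other genes in S2 was therefore bound to stay nearly the same on either scale.

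**Figure D4:**
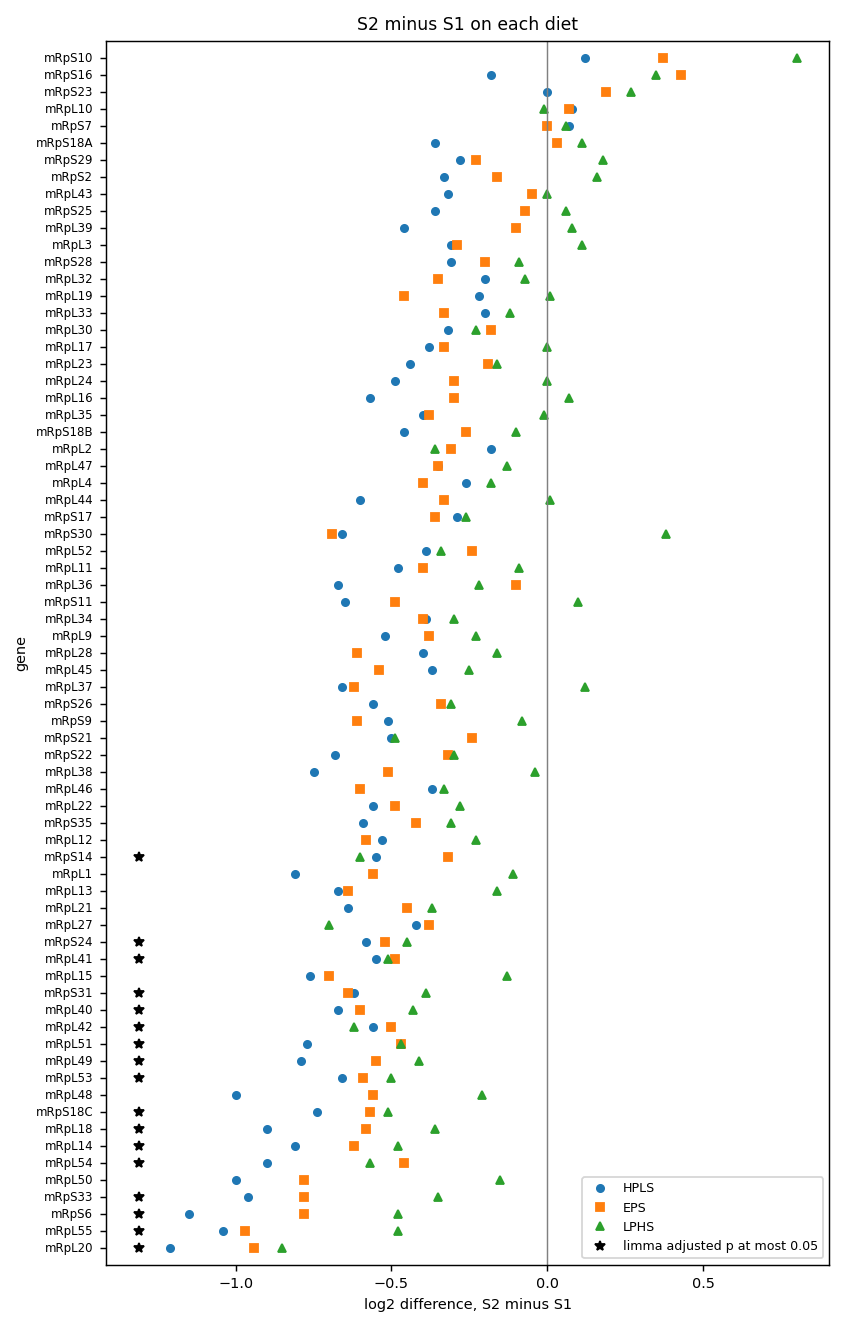
Log2 difference S2 minus S1 (x axis) of each of the 71 genes (y axis, sorted by the fitted difference) on HPLS (circles), EPS (squares) and LPHS (triangles). Stars at the left edge mark the 17 genes with a limma adjusted p of at most 0.05. All 17 are lower in S2, and the triangles lie mostly to the right of the circles.

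The largest difference was that of mRpL20 (3L, 13017149 to 13017867), whose bacterial counterpart is needed for assembly of the large subunit. It had 278.0, 359.9 and 367.1 normalised units on HPLS, EPS and LPHS in S2, against 646.0, 692.0 and 662.3 in S1. The sets were far apart on each diet, with a log2 difference of -1.0 ± 0.13 (SE) and a limma adjusted p of 0.0105. mRpL55 (3R, 19094394 to 19094905) had 154.9, 191.3 and 203.9 in S2 against 320.2, 375.9 and 284.9 in S1 (log2 difference -0.83 ± 0.16, limma adjusted p = 0.0269). mRpS6 (3L, 4364550 to 4365243), which pairs with S18 on the platform of the bacterial small subunit, had 147.2, 194.4 and 225.4 in S2 against 327.2, 335.1 and 314.3 in S1 (-0.80 ± 0.17, limma adjusted p = 0.0321). mRpS33 (3R, 16436045 to 16436597) had 194.3, 284.4 and 315.6 in S2 against 378.9, 487.6 and 401.3 in S1 (-0.69 ± 0.16, limma adjusted p = 0.0398). Left out 1 at a time, the HPLS library of S1 cost mRpL20 its call, and each of the HPLS and EPS libraries of either set cost mRpL55, mRpS6 and mRpS33 theirs. In all 4 genes each S2 value lay below each S1 value, and the first 3 have no exonic overlap with another gene.

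mRpL50 (3L, 7243080 to 7243933) had a log2 difference of -0.64 ± 0.19 but was not called (limma adjusted p = 0.0702). It had 186.6, 258.6 and 337.0 in S2 and 373.3, 444.0 and 373.3 in S1, so that the sets came near each other on LPHS. The further genes called lower were mRpL14, mRpL18, mRpL40, mRpL41, mRpL42, mRpL49, mRpL51, mRpL53, mRpL54, mRpS14, mRpS18C, mRpS24 and mRpS31, with adjusted p between 0.0254 and 0.0491.

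Genes that went the other way on all 3 diets were mRpS10, mRpS23 and mRpS7, and limma called none of them. mRpS10, of the head of the small subunit (3R, 15229665 to 15230516), had 232.6, 325.8 and 384.3 on HPLS, EPS and LPHS in S2, against 213.9, 252.4 and 220.3 in S1. It ran in the order of the diets in S2 but not in S1, and its log2 difference of 0.43 ± 0.17 did not pass the test (limma adjusted p = 0.128). mRpS23 differed by 0.15 ± 0.13 (limma adjusted p = 0.429). mRpS7, of the head as well, had 541.2, 627.8 and 626.8 in S2 and 514.6, 627.5 and 602.0 in S1, the most even values of the 71 genes, with a log2 difference of 0.04 ± 0.11 (limma adjusted p = 0.796).

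Other gene groups of the mitochondrion and of protein synthesis were set beside the members. The 84 nuclear genes tested of oxidative phosphorylation subunits, which work with the products of the mitochondrial ribosome, had a median log2 fold change of 0.25 in LPHS-HPLS (73 above 0, 61 higher in both sets) and of -0.53 in S2-S1 (44 called lower and 2 higher). The 87 genes tested of the cytosolic ribosome had a median of 0.04 in LPHS-HPLS (62 above 0, 28 higher in both sets) and of -0.16 in S2-S1 (1 called lower and 4 higher). The 12 messenger RNAs tested of the mitochondrial genome, the templates of this ribosome, had a median of -0.26 in LPHS-HPLS (0 above 0) and of 0.25 in S2-S1 (9 above 0 and 3 below), with 0 genes called in either comparison. By diet, their median S2-S1 difference was 0.41 on HPLS, 0.55 on EPS and -0.08 on LPHS. As the libraries were made from polyadenylated RNA, the level of these messengers also depends on their poly(A) tails. Of all genes tested, 48.1% lay above 0 and 26.1% were higher in both sets in LPHS-HPLS. In S2-S1, 8.57% of all genes were called lower and 7.07% higher. limma called no gene of the 3 lists in LPHS-HPLS, and differences between the lists were not tested.

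**Figure D5:**
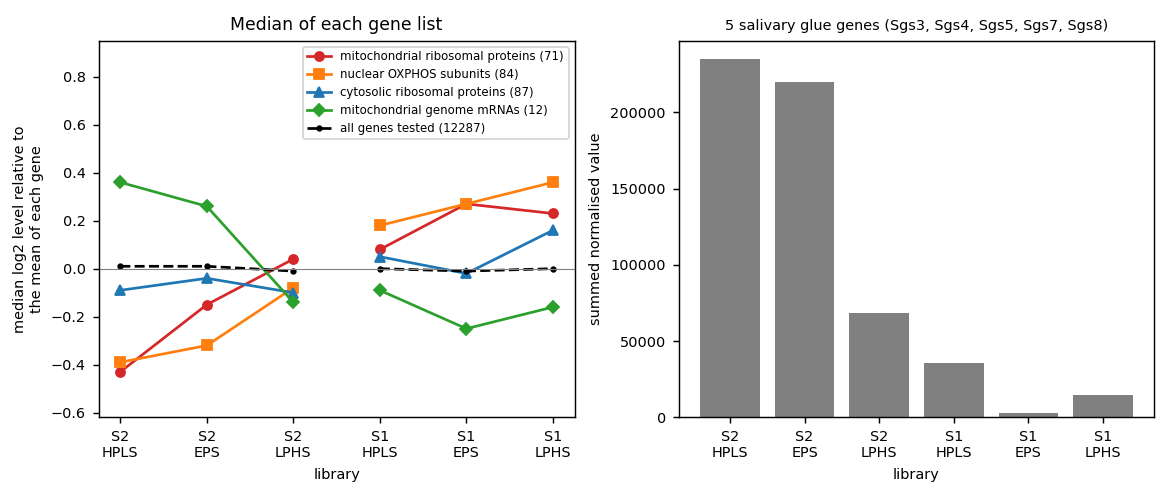
Left, the median over each gene list of log2(normalised value + 1) minus the mean of the gene over the 6 libraries (y axis), by library (x axis, S2 left of S1). Right, the summed normalised value of 5 salivary glue genes by library, as bars from 0. The members are at -0.43 in the S2 HPLS library and between 0.08 and 0.27 in S1, the messenger RNAs of the mitochondrial genome are highest in the S2 HPLS library, and the glue genes are highest in the HPLS and EPS libraries of S2.

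Genes that serve the mitochondrial ribosome in other ways were taken from fixed lists of names, and none was called in LPHS-HPLS. All 9 translation factors tested had a log2 fold change above 0, with a median of 0.37. Of these, 6 were higher on LPHS in both sets, against 26.1% of all genes tested. The elongation factor gene mEFG1 had 190.4, 224.4 and 451.9 on HPLS, EPS and LPHS in S2 and 311.8, 456.8 and 325.5 in S1, with a log2 fold change of 0.65 ± 0.43. mEFTu1, which brings the charged transfer RNA, had 1158.6, 1448.0 and 2170.3 in S2 and 2333.7, 3155.6 and 2715.2 in S1 (0.56 ± 0.49), and was called lower in S2-S1 (log2 difference -0.82 ± 0.18, limma adjusted p = 0.0369), as was mEFTu2 (-0.63 ± 0.12, limma adjusted p = 0.0265). mRRF2, named for a ribosome recycling factor, had a log2 fold change of 0.52 ± 0.33 in LPHS-HPLS.

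The 14 aminoacyl-tRNA synthetases of mitochondria had a median log2 fold change of 0.21 in LPHS-HPLS (13 above 0), and 4 were higher in both sets, a share close to the 26.1% of all genes tested. Their median in S2-S1 was 0.01, with 0 called. ProRS-m, LeuRS-m and TyrRS-m had the largest values, 0.34 ± 0.26, 0.32 ± 0.34 and 0.30 ± 0.20.

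Markers of larval tissues differed in how they varied between the libraries. The 5 salivary glue genes (Sgs3, Sgs4, Sgs5, Sgs7 and Sgs8), which the gland switches on late in the third instar, summed to 235198, 219770 and 68293 normalised units on HPLS, EPS and LPHS in S2, and to 35397, 3202 and 14796 in S1. All 5 were higher in S2 than in S1 on every diet, and limma called 4 of them. Larval cuticle genes (4 Lcp genes, epidermis) summed to 1120470, 945692 and 562951 in S2 and to 526536, 440414 and 472228 in S1. Both sums were highest in the S2 HPLS library, where most members were lowest. By gene, Lcp3 and Sgs5 were highest in the S2 EPS library instead. Lcp3 had 159401.1 there against 138119.8 in S2 HPLS, and Sgs5 had 19573.3 against 18999.9. The log2 fold change of Lcp3 in LPHS-HPLS was 0.09. The 4 nervous system genes summed to 3861, 3056 and 2241 in S2 and to 2058, 1841 and 1922 in S1, with Syt1 making up most of the difference.

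Other lists had other patterns. The 5 midgut genes summed to 87367, 101645 and 125826 on HPLS, EPS and LPHS in S2 and to 64216, 70207 and 91153 in S1, and 4 of them had a log2 fold change above 0 in LPHS-HPLS. The 3 muscle genes summed to 468948, 404757 and 640933 in S2 and to 607753, 736483 and 656227 in S1. That sum follows Act57B and Mhc, while Mlc2 had a log2 difference of 0.06 in S2-S1, and its lowest library was S1 HPLS. Of the 6 fat body genes, 2 were lower on LPHS than on HPLS in both sets and 0 were higher. These were Fbp2 and the storage protein gene Lsp1alpha, with log2 fold changes of -2.05 ± 1.11 and -1.45 ± 0.63 in LPHS-HPLS. Fbp1 had -1.58 ± 2.94, with a log2 difference of -3.43 in S2 and 0.27 in S1. The fat body genes Lsp1beta, Lsp1gamma and Lsp2 are listed at 0 in the S2 HPLS library alone. Within S1 their log2 differences between LPHS and HPLS were -0.03, -0.09 and -0.9. The 3 hemocyte genes summed to between 6610 and 9196 in S2 and between 8458 and 10250 in S1. That sum follows Hml and Pxn, with log2 differences of -0.59 and -0.17 in S2-S1 and no call. The hemocyte gene NimC1 went the other way and was called higher in S2 (0.65 ± 0.12, limma adjusted p = 0.0267). The 4 testis genes summed to between 1124 and 1334 in S2 and between 1692 and 2244 in S1. The germline gene osk had at most 2.1 normalised units in S2 and between 18.2 and 44.5 in S1. The part of larval stage or tissue make-up in the values of the members was not tested. In whole larvae, fewer cells of a type and less RNA per cell cannot be told apart.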

How the data were processed

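Whole D. melanogaster larvae were sequenced as unstranded, polyadenylated RNA (TruSeq RNA v2). Read pairs were mapped by the authors with TopHat2 and Bowtie2 to a release 6 genome of FlyBase, Cuffdiff was run at default settings, and the authors deposited 1 signal value per gene and library. Between 96.5 and 97.1% of the deposited values above 0 are whole multiples of 1 step per library, 0.639 to 1.284 (within 0.01 steps, or within the rounding of large values), and division by the step gave fragments. As the values are not counts, limma (3.58.1, with a trend of the variance) was run on log2 of the value plus 1, after TMM scaling, with the 3 diets in 1 fit. Genes were kept by filterByExpr of edgeR (4.0.16, minimum count 10). p-values were two-sided and adjusted over all 12287 genes tested by Benjamini-Hochberg, with calls at 0.05. S2-S1 was fitted with the diet as a factor. In the diet comparisons, with 2 libraries per diet, p-values measure the spread between these libraries. In S2-S1 they measure how unevenly the difference between the sets ran over the 3 diets. They do not measure a spread between independent replicates of a set.

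Alternatives were RLE and upper-quartile scaling, no filter, a pseudocount of 4, edgeR and DESeq2 (1.42.0) on fragments, each library left out and the replicate number as a block. Scaling by the library total or by the authors alone, the edgeR fit with a block and a fit without the 4 genes listed at 0 were chosen after seeing the data. Fits were tested on simulated data. Symbols came from a table of names (16939 of 17239 identifiers matched). Members counted as having a bacterial counterpart were mRpL up to 36, 47 and 55, and mRpS up to 21, 24 and 28. The members, gene lists and tests were chosen with earlier results of these data known. Named were the 5 largest positive and negative values in LPHS-HPLS with the same sign in both sets, likewise in S2-S1 on all 3 diets, the 4 highest and lowest levels per kb, genes picked for their role, and of the other lists up to 3 genes with the largest change. No negative value in LPHS-HPLS met this rule, and 3 positive ones in S2-S1 did. TFAM and mEFTu2 were named as well, although neither was among the 3 largest changes of its list in LPHS-HPLS. R was 4.3.3. The tables of the other species do not name these genes and were not used here.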

Additional observations from a re-analysis of the deposited data

How the results depend on the processing

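The summary results were recomputed under each alternative, and 127 of 151 values stayed within 1.5 times the count or within the spread of the medians between the sets. Replicate numbers are shared across diets, and libraries of the same number deviated together, with correlations of 0.708 (HPLS and EPS), 0.592 (HPLS and LPHS) and 0.553 (EPS and LPHS) over 12287 genes. With the replicate block, limma called 0 genes in LPHS-HPLS, with 949 genes and 12 members at an unadjusted p below 0.05, and 6 genes in the diet trend, and edgeR with the block called 7 in the trend. None of these was a member. DESeq2 called 14 genes in LPHS-HPLS and 22 in the trend. Leaving out single libraries gave 0 to 4 genes called in LPHS-HPLS, 0 to 4 in EPS-HPLS, 0 to 1 in LPHS-EPS, 0 in the trend and 599 to 3602 in S2-S1, against 1922 with all libraries. The members' median then ranged from 0.03 to 0.58 in LPHS-HPLS, from -0.01 to 0.50 in EPS-HPLS, from -0.15 to 0.28 in LPHS-EPS and from -0.47 to -0.31 in S2-S1. On the authors' scaling alone, S2-S1 called 6842 genes and the members' median was 0.13, as all genes shifted by 0.52. Without the HPLS library of S2, the log2 fold change in LPHS-HPLS was -0.01 for mRpL11, -0.01 for mRpL9 and -0.11 for mRpS18C, within ranges of -0.01 to 0.48, -0.01 to 0.52 and -0.11 to 0.65 over the libraries left out. The cause of these changes was not tested. Diet fits without single libraries had no term for the set, so that diet and set cannot be told apart in them.

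There were 2 libraries per diet and 153 to 1614 fragments per member and library, and which of these limits the diet comparisons was not tested. Other fits of the named genes (376 of 400) kept their direction and side of the threshold.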

Other observations

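Of the other fixed lists, 19 genes of mitochondrial protein import, which brings these ribosomal proteins into the organelle, were tested. They had a median log2 fold change of 0.21 in LPHS-HPLS, with 16 above 0, 7 higher and 3 lower in both sets. Of all genes tested, 26.1% were higher in both sets. In S2-S1 their median was -0.41, and limma called 2 lower and 0 higher, against 8.57% and 7.07% of all genes. The chaperone gene Hsc70-5 had 2557.9, 3505.3 and 5654.5 normalised units on HPLS, EPS and LPHS in S2 and 5155.4, 7124.8 and 5379.9 in S1, and Hsp60A had 4669.3, 6620.6 and 9065.6 in S2 and 9417.3, 12907.4 and 9992.3 in S1. Neither passed the test in LPHS-HPLS (0.60 ± 0.46 and 0.52 ± 0.46, limma adjusted p = 1). Tim17a2 had a log2 fold change of -0.81 ± 0.89.

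The 12 genes tested of mitochondrial DNA replication and transcription had a median log2 fold change of 0.09 in LPHS-HPLS and of -0.04 in S2-S1, with 0 called. PolrMT, the mitochondrial RNA polymerase, had 171.3, 169.6 and 325.2 on HPLS, EPS and LPHS in S2 and 255.9, 361.4 and 261.0 in S1 (0.47 ± 0.42), and the DNA-packaging factor TFAM had 712.0, 789.2 and 787.8 in S2 and 717.3, 834.5 and 812.5 in S1 (0.16 ± 0.16). All 5 regulators of mitochondrial biogenesis tested had a value below 0 in LPHS-HPLS, with a median of -0.15 and 0 called. Myc, a regulator of growth and of ribosome synthesis, had 560.4, 525.4 and 530.7 in S2 against 983.0, 1101.5 and 841.9 in S1, and was called lower in S2-S1 (log2 difference -0.85 ± 0.13, limma adjusted p = 0.0153).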
